A study of Mus musculus with 12 samples.

Results

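The genes described here are transcripts that define or guide dendritic cells, the antigen-presenting leukocytes that prime T cells. They were chosen by name, as 10 names from a list of dendritic cell lineage genes, of which 9 (Flt3, Zbtb46, Xcr1, Batf3, Irf8, Irf4, Cd209a, Fscn1 and Siglech) were found among the 53801 gene rows of each table. The entry Id2-like matched 0 rows, and the gene Id2, a transcriptional inhibitor needed for dendritic cell development, is described beside the 9. All libraries came from mice of the FVB strain with squamous cell carcinoma of the skin. In 6 libraries the RNA came from tumor macrophages, sorted as CD45+ F4/80+ cells and split into 3 FceRIa-negative and 3 FceRIa-positive libraries (FceRIa is the receptor chain that binds IgE). In the other 6 the RNA came from basal carcinoma cells, sorted for the Rosa-YFP mark, CD49f and CD29 and split by an mScarlet reporter of TGF-beta signalling into 3 negative and 3 positive libraries. The driver of the YFP mark, the age of the mice, any pooling and whether replicates were separate animals have no entry in the labels, so each p-value rests on the spread between samples, and that spread may be technical.

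Conventional dendritic cells arise from bone marrow precursors that carry the receptor tyrosine kinase FLT3, and in mice they are marked by the transcription factor ZBTB46. The type 1 lineage depends on IRF8 and BATF3 and displays the chemokine receptor XCR1, whereas IRF4 serves the type 2 lineage, and plasmacytoid dendritic cells carry the lectin SIGLECH. Several of these genes are not exclusive: IRF8 is also a factor of macrophages and B cells, SIGLECH is found on some tissue macrophages, and fascin, the product of Fscn1, is made by mature dendritic cells and by many migrating carcinoma cells.

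Among the 9 genes, Flt3, Zbtb46 and Siglech were far lower in every FceRIa-positive than in every FceRIa-negative macrophage library, at fold differences of 7.19, 3.95 and 13.1 in the fit that pairs libraries of the same replicate number. Irf4, Fscn1 and Batf3 were lower by smaller amounts, Irf8 was high in all 6 libraries and did not pass the test, Xcr1 was close to the detection limit, and Cd209a was highest in replicate 2 of both groups. In the carcinoma cells Fscn1 was abundant and 6 of the 9 genes were at or near 0.

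The promoters of the 3 genes with the largest differences are shown because these genes moved together. Each runs from 250 bases before to 50 bases after a start site annotated by RefSeq on GRCm38.p6, is written 5′ to 3′ on the strand of the gene, and carries in capitals any match to the motifs named after it. The Zbtb46 window lies inside the GENCODE M21 interval of the gene, at an internal start.
Flt3, chr5:147400440-147400739, minus strand: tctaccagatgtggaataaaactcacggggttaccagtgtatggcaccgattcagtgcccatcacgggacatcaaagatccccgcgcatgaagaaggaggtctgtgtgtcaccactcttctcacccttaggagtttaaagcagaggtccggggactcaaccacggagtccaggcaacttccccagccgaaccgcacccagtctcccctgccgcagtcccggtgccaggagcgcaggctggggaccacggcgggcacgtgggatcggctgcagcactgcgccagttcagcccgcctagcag
Zbtb46, chr2:181424339-181424638, minus strand: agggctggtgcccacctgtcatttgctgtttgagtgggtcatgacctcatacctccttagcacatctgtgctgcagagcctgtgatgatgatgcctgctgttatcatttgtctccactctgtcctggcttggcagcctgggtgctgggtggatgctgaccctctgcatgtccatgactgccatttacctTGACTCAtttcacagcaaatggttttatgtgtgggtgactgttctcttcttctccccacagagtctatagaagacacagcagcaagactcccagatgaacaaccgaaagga
Siglech, chr7:55767934-55768233, plus strand: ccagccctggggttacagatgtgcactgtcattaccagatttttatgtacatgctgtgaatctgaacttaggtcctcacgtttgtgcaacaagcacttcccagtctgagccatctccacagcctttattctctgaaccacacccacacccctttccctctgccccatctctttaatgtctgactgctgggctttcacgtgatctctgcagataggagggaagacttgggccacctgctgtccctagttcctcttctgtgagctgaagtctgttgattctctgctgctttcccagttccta

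RefSeq promoters were found for 9 of the 9 genes, 10 windows in all. Both strands were searched for GAGGAAGT (a PU.1 type site), an ETS-IRF composite motif, an interferon response element and TGANTCA (an AP-1 site, which BATF3 can bind with JUN). Matches of the first 3 motifs can overlap, since they share the letters GGAA or GAAA. The capitals in the Zbtb46 window mark TGACTCA, which begins 61 bases before the start site and is the only match in these 3 windows. In the other 7 windows the only match was GGAAGAGAAA of the composite motif on the minus strand of the Cd209a window. AP-1 sites stood in 1 of 10 member windows and in 7.81% of 32851 RefSeq promoters of this length, and the composite in 1 of 10 against 2.72%. The PU.1 and interferon motifs stood in 0 of 10 windows, against 3.20% and 3.44% of promoters. These counts describe letters in short windows only.

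Depth was similar in all libraries, with total counts of 33704786 to 40041144 in the macrophages and 27951632 to 35088897 in the tumor cells. Expression is given as CPM, the depth-scaled count on the TMM-normalized library size, on which a floor of 3 counts equals 0.0698 to 0.107 CPM. These floors cover counting error only. Fcer1a, the gene behind the macrophage sort, had 0, 4 and 3 counts in FceRIa-negative replicates 1 to 3, against 2, 7 and 1 in positive replicates 1 to 3. Its transcript did not separate the groups and the labels were not checked by it. The column of replicate 2 carries the word New in both macrophage groups. Defining macrophage markers were present in all 6 macrophage libraries, with a summed level of 10950 to 14271 CPM over 12 genes in the negative and 18056 to 20705 CPM in the positive libraries.

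The macrophage comparison asks which transcripts distinguish macrophages that carry the IgE receptor chain at the surface. Differences are log2 of positive over negative, each ± its standard error, and a gene is called where its adjusted p is under 0.05. In the unpaired fit with edgeR's quasi-likelihood test, 0 of the 9 genes and 0% of 14988 tested genes passed an adjusted p of 0.05. The smallest adjusted p of any gene was 0.0585, 2345 genes had an unadjusted p under 0.05, among them 5 of the 9, and DESeq2 without pairing called 1263 genes. Replicate numbers paired the macrophage libraries, since same-numbered libraries deviated together. In the paired fit 6 of the 9 genes fell and 0 rose, a share of 66.7%, where 10.2% of all genes tested fell and 10.8% rose. The median log2 difference of the 9 genes was -0.82 and that of all genes was -0.0039. In 4 of the 9 genes every positive library lay below every negative one, as in 9.78% of all genes. The 9 genes were chosen with earlier results of these data known, so these counts are a description. All 9 passed the filter on low counts in the macrophages. In bulk RNA, fewer cells of a type and less RNA per cell cannot be told apart.

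**Figure D1:**
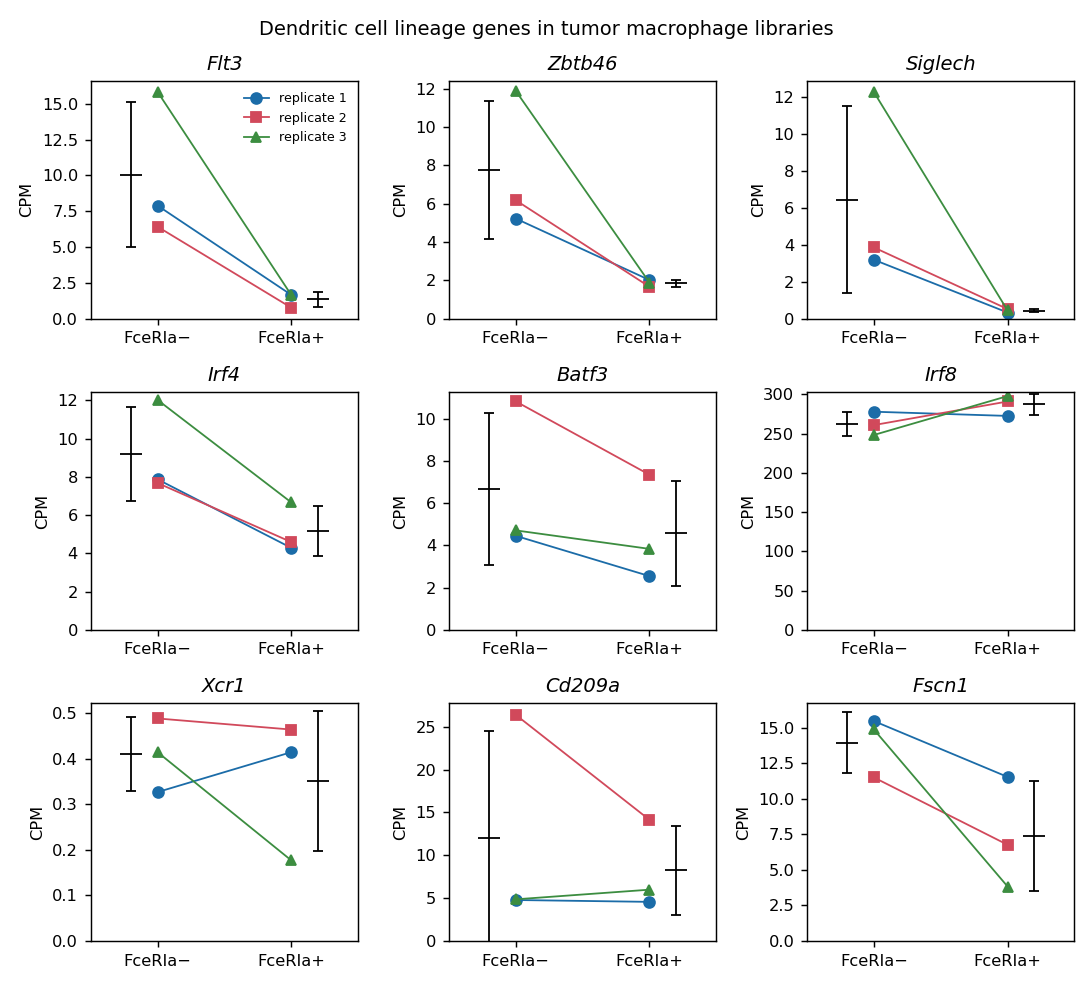
CPM of the 9 genes in the 6 macrophage libraries, FceRIa-negative at the left and FceRIa-positive at the right of each panel, with libraries of the same number joined and the mean ± SD (n = 3) in black (the lower bar of negative Cd209a runs below 0 and is clipped there). Flt3, Zbtb46, Siglech and Irf4 do not overlap between the groups, and Irf8 stays between 248 and 298 CPM.

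Flt3 (ENSMUSG00000042817, chromosome 5, 147330741 to 147400489, minus strand, GRCm38, GENCODE M21) encodes the receptor that drives dendritic cell precursors. It was at 7.89, 6.42 and 15.8 CPM in negative replicates 1 to 3 and at 1.66, 0.764 and 1.65 CPM in positive replicates 1 to 3. The groups did not overlap, and negative replicate 3 stood highest. The positive library held 21%, 11.9% and 10.4% of the level in the negative library of the same number. The log2 difference was -2.85 ± 0.22 (SE) in the paired fit, with an adjusted p of 0.000234 by edgeR's quasi-likelihood test, and -2.89 ± 0.47 in the unpaired fit, with an adjusted p of 0.0591. Its ligand gene Flt3l was at 3.20 to 4.37 CPM in the negative libraries, against 3.18 to 4.86 CPM in the positive libraries, and its log2 difference of 0.12 did not pass (paired adjusted p = 0.648).

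Zbtb46 (ENSMUSG00000027583, chromosome 2, 181387762 to 181459426, minus strand) encodes a zinc finger factor of conventional dendritic cells. It was at 5.23, 6.19 and 11.9 CPM in negative replicates 1 to 3 and at 2.02, 1.66 and 1.89 CPM in the positive ones. The positive libraries lay close together and all below the negative ones, of which replicate 3 was again the highest. Its log2 difference was -1.98 ± 0.24 in the paired fit (adjusted p = 0.00123) and -2.06 ± 0.35 in the unpaired fit (adjusted p = 0.0591). The positive share of the negative level was 38.6%, 26.9% and 15.8% for numbers 1, 2 and 3, in each case above the share of Flt3. The ratio of Flt3 to Zbtb46 CPM ran from 1.04 to 1.51 in the negative and from 0.459 to 0.875 in the positive libraries, with no overlap. The difference between these ratios was not tested.

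Siglech (ENSMUSG00000051504, chromosome 7, 55768178 to 55778925, plus strand), a sialic acid binding lectin of plasmacytoid dendritic cells, had the largest difference of the 9. It was at 3.19, 3.86 and 12.3 CPM in negative replicates 1 to 3 and at 0.331, 0.519 and 0.442 CPM in the positive ones, which rest on 12, 19 and 15 counts. No library of one group reached the other group, and negative replicate 3 held more than the other negative libraries together. The log2 difference was -3.71 ± 0.35 in the paired fit (adjusted p = 0.000466) and -3.89 ± 0.62 in the unpaired fit (adjusted p = 0.0591). Without pair 3 the paired difference was -3.05. Of 12 other plasmacytoid genes, 9 were tested, and with pairing 2 (Ly6d and Runx2) fell and 2 rose. Their median was 0.24. Ly6d is also a keratinocyte transcript and was at 857 to 2388 CPM in the tumor libraries. In the macrophages Ly6d was at 93.0, 58.3 and 6.33 CPM in negative replicates 1 to 3, against 60.8, 39.9 and 5.89 CPM in positive replicates 1 to 3, lowest in replicate 3 as the keratin gene Krt14 was, and the part of carcinoma RNA in it was not tested. The paired adjusted p of Ly6d was 0.157 without pair 1 and 0.0585 without pair 2. Tcf4, the factor that sets plasmacytoid identity, rose by 0.77 ± 0.08 from 44.5 ± 8.57 to 75.5 ± 8.25 CPM (SD, n = 3), and the RNA sensor gene Tlr7 rose by 1.29 ± 0.12. The plasmacytoid genes Spib, Klk1 and Pacsin1 did not pass the count filter. Spib had 0 to 4 counts and Klk1 0 to 3 counts in each library. Pacsin1 had 7, 3 and 16 counts in negative replicates 1 to 3, against 0, 1 and 1 in positive replicates 1 to 3, and was highest in negative replicate 3, as Siglech was. Cox6a2, which was tested, ran the other way, with 15, 16 and 2 counts in the negative libraries against 27, 26 and 34. Ccr9, also tested, had 19, 18 and 12 counts in the negative libraries against 24, 33 and 14. Neither Cox6a2 nor Ccr9 passed in the paired fit.

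The interferon regulatory factor gene Irf4 (ENSMUSG00000021356, chromosome 13, 30749226 to 30766976) was at 7.87, 7.67 and 12 CPM in negative replicates 1 to 3 and at 4.28, 4.59 and 6.66 CPM in the positive ones. The groups did not overlap, and replicate 3 was highest in both. Within each number the positive library held 54.4%, 59.7% and 55.4% of the negative one, the narrowest range of the 6 genes that fell. Its log2 difference was -0.82 ± 0.12 (paired adjusted p = 0.00288, unpaired 0.196).

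Irf8 (ENSMUSG00000041515, chromosome 8, 120736358 to 120756694) was at 278, 261 and 248 CPM in negative replicates 1 to 3 and at 273, 291 and 298 CPM in the positive ones. The groups overlapped, and the order within a number differed between replicate 1 and replicates 2 and 3. The log2 difference was 0.13 ± 0.09 in the paired fit (adjusted p = 0.338), with a 95% interval of -0.07 to 0.33. That interval holds no decrease of the size seen in Irf4. The ratio of Irf4 to Irf8 CPM was 0.0283 to 0.0484 in the negative and 0.0157 to 0.0224 in the positive libraries.

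Batf3 (ENSMUSG00000026630, chromosome 1, 191097847 to 191108945), a basic leucine zipper factor of the type 1 lineage, was at 4.45, 10.8 and 4.71 CPM in negative replicates 1 to 3 and at 2.54, 7.34 and 3.83 CPM in the positive ones. The groups overlapped because replicate 2 was highest in both, while the positive library was the lower of each number. Its log2 difference was -0.55 ± 0.15 in the paired fit (adjusted p = 0.0371, unpaired 0.731). The adjusted p was 0.182 without pair 1, 0.161 without pair 2 and 0.00425 without pair 3, and DESeq2 with the block gave 0.0586.

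Xcr1 (ENSMUSG00000060509, chromosome 9, 123852315 to 123862029) had 13, 21 and 14 counts in negative replicates 1 to 3, against 15, 17 and 6 in positive replicates 1 to 3, or 0.177 to 0.488 CPM over the 6 libraries. The groups overlapped, and the log2 difference was -0.23 in the paired fit (adjusted p = 0.733). Its 95% interval ran from -1.16 to 0.70, and differences within that range are not excluded at this depth. Clec9a, the dead-cell receptor of type 1 dendritic cells, had 1 to 7 counts in each library and did not pass the filter.

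Cd209a (ENSMUSG00000031494, chromosome 8, 3743397 to 3748984), a C-type lectin related to human DC-SIGN and a member of a cluster of similar genes whose reads may be split, was at 4.77, 26.4 and 4.85 CPM in negative replicates 1 to 3 and at 4.56, 14.1 and 5.98 CPM in the positive ones. Replicate 2 stood apart in both groups. The log2 difference was -0.28 ± 0.22 in the paired fit (adjusted p = 0.413, 95% interval -0.77 to 0.22) and 0.12 without pair 2. Without pair 3 it passed, at -0.55 with an adjusted p of 0.00765.

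Fscn1 (ENSMUSG00000029581, chromosome 5, 142960343 to 142973185), the actin-bundling protein fascin, was at 15.5, 11.5 and 14.9 CPM in negative replicates 1 to 3 and at 11.5, 6.77 and 3.83 CPM in the positive ones. Positive replicate 1 and negative replicate 2 nearly coincided, and the positive library was the lower of each number. Its log2 difference was -1.01 ± 0.25 in the paired fit (adjusted p = 0.0268, unpaired 0.314). Without pair 1 the adjusted p was 0.0567, and without pair 3 the difference was -0.59. Keratinocyte transcripts were present in these libraries, and the sum of 8 such genes was, like Fscn1, lower in the positive library of each number. It was 3349, 2411 and 830 CPM in negative replicates 1 to 3, against 2282, 1471 and 247 CPM in positive replicates 1 to 3. In the paired fit 6 of the 8 fell. Among the negative libraries the sum was lowest in replicate 3, while Fscn1 was lowest in replicate 2. Of the 830 CPM in negative replicate 3, 529 CPM were Epcam, which Langerhans cells also make and which stood there at 286% of its mean in the tumor libraries. Krt14 was at 1706, 1237 and 129 CPM in negative replicates 1 to 3 and at 1189, 789 and 97.2 CPM in the positive ones, which are 4.84%, 3.51%, 0.367%, 3.38%, 2.24% and 0.276% of its mean in the tumor libraries. Fscn1 stood at 2.84%, 2.11%, 2.73%, 2.12%, 1.24% and 0.703% of its own tumor mean in the same order, so in replicate 3 it exceeded the share of Krt14 in both groups. These shares set levels of separately scaled tables side by side, and the part of carcinoma RNA in the Fscn1 result was not tested.

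**Figure D2:**
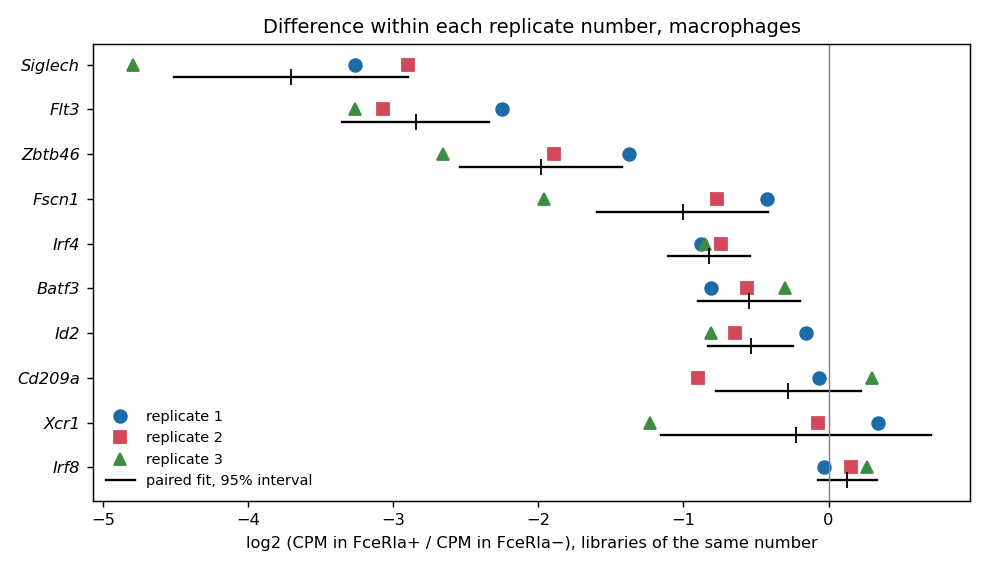
Log2 ratio of CPM in the FceRIa-positive over the FceRIa-negative macrophage library of the same number, for the 9 genes and Id2 (coloured points), with the paired fit's estimate and 95% interval (black line under each row). Siglech, Flt3 and Zbtb46 lie at or below -1.37 in all 3 numbers, while the Irf8 interval runs from -0.07 to 0.33.

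Id2 (ENSMUSG00000020644) was at 358, 240 and 472 CPM in negative replicates 1 to 3 and at 322, 154 and 269 CPM in the positive ones. The groups overlapped, while the positive library was the lower of each number. The log2 difference was -0.54 ± 0.13 in the paired fit (adjusted p = 0.02, unpaired 0.556), and the adjusted p was 0.0628 without pair 2.

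Per kilobase of merged exons, a scale that allows genes to be compared, Irf8 led in the FceRIa-negative libraries at 37.2 ± 2.11 CPM per kb (SD, n = 3). Cd209a followed at 7.59 ± 7.87, then Fscn1 at 4.63 ± 0.711 and Batf3 at 4.17 ± 2.26 CPM per kb, whose ranges overlapped. Siglech, Irf4 and Flt3 came next in the order of means, at 1.91 ± 1.5, 1.87 ± 0.5 and 1.63 ± 0.820 CPM per kb, with overlapping ranges. Siglech, at 0.943 to 3.63 CPM per kb, also overlapped Cd209a and Batf3 above it and Zbtb46 below it. Zbtb46 was at 0.913 ± 0.424 and Xcr1 at 0.0920 ± 0.0182 CPM per kb. Zbtb46 overlapped Flt3, and Xcr1 lay below all others. In the FceRIa-positive libraries Irf8 was at 40.7 ± 1.85 CPM per kb, and Cd209a, Batf3 and Fscn1 lay between 1.27 and 8.93 CPM per kb in single libraries, with Irf4 at 1.06 ± 0.264. Flt3 and Zbtb46 were equal there within their spread, at 0.220 ± 0.0832 and 0.218 ± 0.0209 CPM per kb. Siglech and Xcr1 were the lowest, at 0.127 ± 0.0278 and 0.0790 ± 0.0345 CPM per kb, and their ranges overlapped.

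The wider dendritic cell programme was read from 7 lists with 82 further genes, of which 73 were tested in the macrophages. In the paired fit 29 (39.7%) fell and 8 (11%) rose, against 10.2% and 10.8% of all genes, and in the unpaired fit 0 passed. The median log2 difference of the 73 was -0.21. The lists were chosen with earlier results of these data known, so these counts are a description.

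Most genes shared by conventional dendritic cells moved in the direction of Flt3 and Zbtb46. Of 11 tested, 7 fell and 1 rose, with a median of -1.5. Kit, a receptor of early precursors, fell by 1.82 (SE 0.13, adjusted p = 0.000201), from 13 ± 3.45 to 3.72 ± 1.18 CPM (SD, n = 3). Dpp4, a surface peptidase, fell by 1.67 (SE 0.15). Kmo and Haao, enzymes that break down tryptophan, fell by 1.47 and 1.5. The integrin gene Itgax (CD11c), the most abundant of the list, was at 929 to 1025 CPM in the negative libraries, against 712 to 933 CPM in the positive libraries and did not pass (log2 difference -0.21, adjusted p = 0.219). Jaml ran against the list, with the negative value the smaller in every pair. Its levels were 231, 117 and 168 CPM in negative replicates 1 to 3, against 342, 175 and 234 CPM in the positive ones.

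Of 9 tested type 1 genes 3 fell and 2 rose, with a median of 0.14. Itgae (CD103), an integrin that binds E-cadherin, fell by 2.69 (SE 0.30, adjusted p = 0.000885), from 30.6 ± 17.7 to 4.25 ± 0.394 CPM, and Naaa, a lysosomal amidase, fell by 0.52. The RNA sensor gene Tlr3 rose by 0.34 ± 0.08. Of 12 type 2 genes 6 fell and 1 rose, with a median of -0.41. Ffar2, a receptor for short-chain fatty acids, fell by 2.53 (SE 0.11), S100a4 by 1.46 and the lymphotoxin gene Ltb by 1.54. Mgl2, a galactose-binding lectin and the most abundant of that list, fell by 0.56 (adjusted p = 0.0233), from 374 ± 130 to 263 ± 125 CPM. Epcam, an adhesion gene also made by Langerhans cells and keratinocytes, fell by 3.24, from 306 ± 196 to 31.1 ± 15.5 CPM. Clec10a of the type 2 list went the opposite way in every pair, although the groups overlapped. Its levels were 88.8, 132 and 71.1 CPM in negative replicates 1 to 3, against 129, 188 and 141 CPM in the positive ones.

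Of 11 tested genes of mature dendritic cells 5 fell and 1 rose, with a median of -0.80. Ccl22, a chemokine that draws regulatory T cells, fell by 3.66 (SE 0.15, adjusted p = 2.54e-05), from 40 ± 21.9 to 3.08 ± 1.29 CPM, and Ccl17 fell by 1.41. Cd40, a co-stimulatory receptor, fell by 0.71. Cd83, a surface marker of maturation that macrophages also make, rose by 0.74 ± 0.08, from 119 ± 19.2 to 201 ± 48.4 CPM.

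Of 9 genes of MHC class II presentation 6 fell and 0 rose, with a median of -0.66. Ciita, the master regulator of class II genes, fell by 0.85 (SE 0.10, adjusted p = 0.00104), from 499 ± 68.2 to 281 ± 67.1 CPM, and the peptide-loading chains H2-DMb2, H2-DMa and H2-DMb1 fell by 0.92, 0.66 and 0.62. Cd74, the invariant chain, was at 15157 to 19203 CPM in the negative libraries, against 9350 to 14859 CPM in the positive libraries and did not pass (log2 difference -0.50, adjusted p = 0.0818). In the list of FLT3 and growth factor signalling, 1 of 12 tested genes rose and 0 fell, with a median of -0.02. It was Zeb2, a repressor used by macrophages and plasmacytoid cells, which rose by 0.76 ± 0.12. Csf1r, the receptor for macrophage growth factor, was at 2227 to 2665 CPM in the negative libraries, against 2384 to 3144 CPM in the positive libraries (log2 difference 0.17, adjusted p = 0.307).

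**Figure D3:**
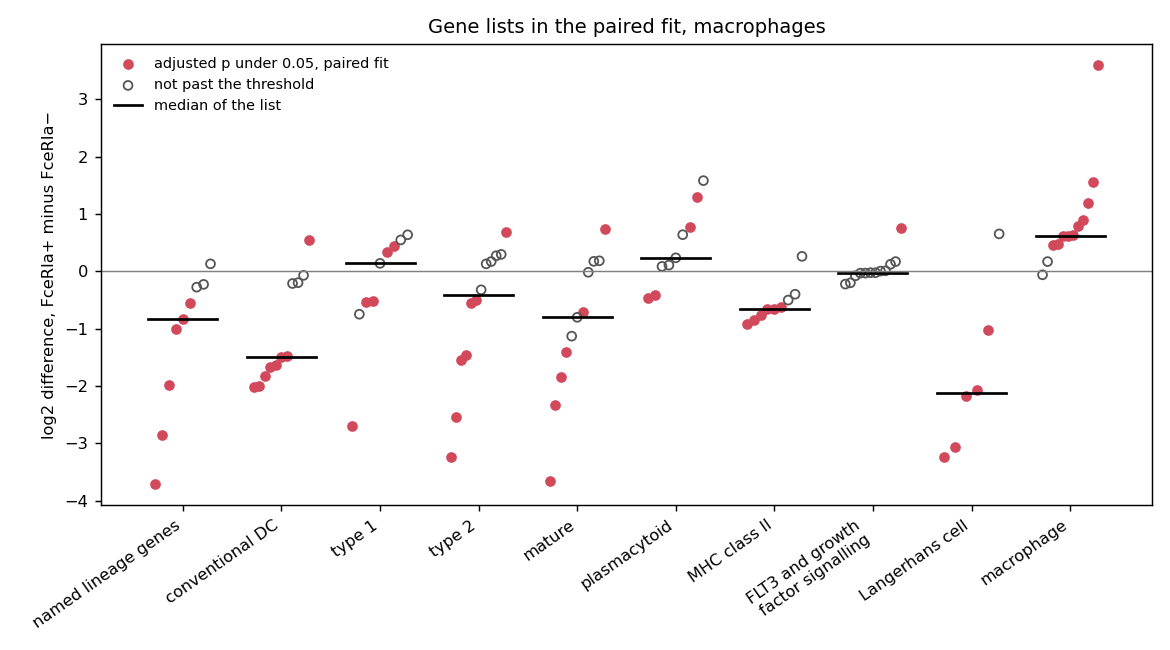
Log2 difference of each tested gene in the paired fit of the macrophages, by gene list, with genes past the adjusted threshold filled and the list median as a bar. The conventional dendritic cell and Langerhans cell lists lie mostly below 0 (medians -1.5 and -2.12), the macrophage list above 0 (median 0.62), and the signalling list around -0.02.

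Markers of other cells moved with the sort. Summed over 6 genes, the Langerhans cell list was at 1685, 1439 and 3562 CPM in negative replicates 1 to 3 and at 410, 383 and 556 CPM in the positive ones, and 5 of the 6 fell in the paired fit. Negative replicate 3, the library with the highest Langerhans sum, was also the highest in Flt3, Zbtb46, Siglech and Irf4. Cd207 (langerin), the defining gene, was at 44.2, 188 and 210 CPM in the negative libraries, against 5.77, 37.7 and 13.3 CPM in the positive libraries. Among the negative libraries Cd207, Zbtb46 and Siglech were lowest in replicate 1, while Flt3 and the Langerhans sum were lowest in replicate 2 and highest in replicate 3. The macrophage list moved the other way, and 10 of its 12 genes rose. Mrc1 (CD206), a mannose receptor, rose by 1.56 ± 0.16 and Mertk, an apoptotic cell receptor, by 1.19 ± 0.10. The part of any of these cells in the differences of the dendritic cell genes was not tested.

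Of the remaining marker lists, the T cell sum was 60.2 to 75.5 CPM in the negative libraries, against 123 to 169 CPM in the positive libraries, most of it Cd4, while Cd3g was at 15.8, 0.674 and 14.8 CPM in negative replicates 1 to 3 and 0.246 to 1.06 CPM in the positive ones. The NK cell sum was 7.05 to 13.5 against 2.13 to 4.45 CPM and the monocyte sum 1778 to 3087 against 1944 to 4900 CPM. The B cell sum was 23.2 to 31.8 against 69.5 to 75.6 CPM, most of it Cd22, and Cd79a, a chain of the B cell receptor, had 2 to 6 counts in each library. Sums of the mast cell or basophil list, called mast cell sums here, were 8.95 to 140 against 7.59 to 37.2 CPM. Neutrophil sums were 127 to 667 against 144 to 368 CPM, and both sums were lowest in replicate 2. Most of the mast cell sum in replicates 1 and 3 was Hdc, the histidine decarboxylase gene that neutrophils also express, at 60.1, 3.95 and 132 CPM in negative replicates 1 to 3, against 28.2, 3.41 and 32.3 CPM in positive replicates 1 to 3. The mast cell genes Cpa3, Mcpt4, Cma1 and Tpsb2 were at 0.193 to 1.10 CPM. In the paired fit 3 of the 8 genes of this list fell (Hdc, Ms4a2 and Mcpt8) and 0 rose. Ms4a2 was at 0.578, 1.28 and 1.39 CPM in negative replicates 1 to 3, against 0.304, 0.437 and 0.383 CPM in the positive ones. Mcpt8 was at 1.48, 0.628 and 2.60 CPM in negative replicates 1 to 3, against 0.0829, 0.382 and 0.560 CPM in the positive ones. Among these lists the NK cell and mast cell sums were highest in negative replicate 3, where Siglech was highest too. The mast cell sum there was mostly Hdc. In negative replicate 2, with Cd3g at 0.674 CPM, Flt3, Zbtb46 and Siglech were at 6.42, 6.19 and 3.86 CPM. In negative replicate 1, with Cd3g at 15.8 CPM, these 3 genes were at 7.89, 5.23 and 3.19 CPM. In negative replicate 3, with Cd3g at 14.8 CPM, they were at 15.8, 11.9 and 12.3 CPM. The part of T cell RNA in these values was not tested.

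**Figure D4:**
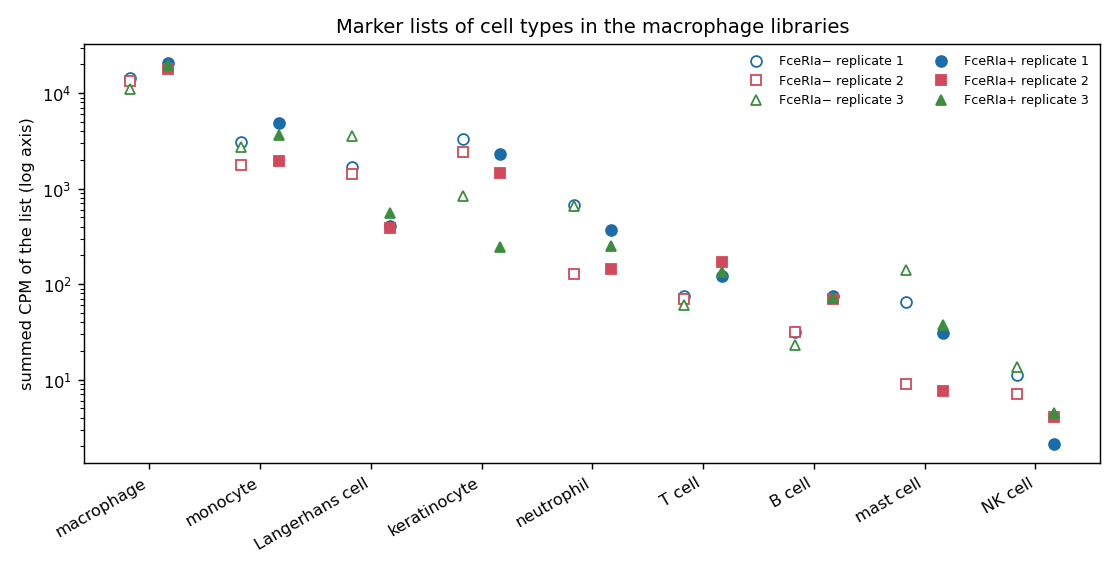
Summed CPM of marker lists in the 6 macrophage libraries on a log axis, FceRIa-negative open and FceRIa-positive filled. The Langerhans cell sums run from 1439 to 3562 CPM in the negative libraries and from 383 to 556 CPM in the positive libraries, and the macrophage sums are higher in the positive ones.

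For Flt3 and Zbtb46 the genes with the most similar profile were sought over the 6 macrophage libraries, by the root mean square difference of log2 CPM after centring each gene. Nearest to Flt3 were Slco4a1 (0.18), Unc5b (0.20), Acap1 (0.23), Cd24a (0.26) and Cdh1 (0.26). Cd24a is a surface glycoprotein of type 1 dendritic cells and many other cells, and Cdh1 encodes E-cadherin, an adhesion molecule of Langerhans cells and keratinocytes. Cdh1 was at 846, 547 and 1455 CPM in negative replicates 1 to 3 and at 217, 140 and 306 CPM in the positive ones. Nearest to Zbtb46 were Ly6a (0.15), Hook1 (0.16), Spn (0.19), Rgs12 (0.21) and Tspan2 (0.21). Ly6a was at 70.1, 71.0 and 177 CPM in the negative libraries, against 27.3, 26.6 and 32.2 CPM in the positive libraries.

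In the carcinoma cells the comparison asks which genes distinguish cells that respond to TGF-beta. Of the 9 genes, 3 (Fscn1, Irf8 and Batf3) passed the filter on low counts, and 0 of these passed the test in the unpaired or the paired edgeR fit. Of all 13604 genes 0.809% passed in the unpaired fit (0.573% higher and 0.235% lower) and 18% in the paired fit (10.7% higher and 7.34% lower). In 0 of the 3 did the groups separate without overlap, as they did in 28.2% of all genes. DESeq2 called neither Fscn1 nor Irf8, without or with the block, and gave Batf3 no adjusted p. Of the 3 genes 0 had an unadjusted p under 0.05 in the unpaired fit.

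Fscn1 was at 615, 522 and 581 CPM in reporter-negative replicates 1 to 3 and at 546, 472 and 530 CPM in the positive ones. The groups overlapped, although the positive library was the lower of each number. Its log2 difference was -0.15 ± 0.09 in the unpaired fit (adjusted p = 0.437) and -0.15 in the paired fit (adjusted p = 0.0804, 95% interval -0.26 to -0.03). Without pair 2 the paired fit called it, at -0.16 (adjusted p = 3.51e-07), in a fit that leaves 4 libraries. Those are replicates 1 and 3, much closer to each other than to replicate 2, so the spread behind that p may be technical. Their chi-square per degree of freedom was 3.11 in the negative and 1.62 in the positive libraries, against 47.0 to 99.5 in comparisons with replicate 2. At 190 ± 15.7 CPM per kb in the negative cells (SD, n = 3), Fscn1 was the most abundant of the 9 there.

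Irf8 was at 0.427, 1.44 and 0.624 CPM in reporter-negative replicates 1 to 3 and at 0.885, 2.89 and 0.817 CPM in the positive ones. Replicate 2 was highest in both groups, and the log2 difference of 0.84 did not pass (paired adjusted p = 0.0555, unpaired 0.53). The summed level of 8 general leukocyte genes was also highest in replicate 2, with 65.1 and 78.5 CPM in its negative and positive library, against 25.1 to 36.5 CPM in the other 4. The part of leukocyte RNA in the Irf8 values was not tested. Batf3 was at 0.327 to 0.768 CPM in the negative libraries, against 0.328 to 0.727 CPM in the positive libraries (paired adjusted p = 0.561).

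The 6 other genes were at the limit of detection in the carcinoma cells. Xcr1 had 0 counts in all 6 libraries, and Flt3, Irf4, Cd209a and Siglech had 0 to 2. Zbtb46 had 2, 1 and 5 counts in negative replicates 1 to 3, against 4, 4 and 6 in positive replicates 1 to 3. A count of 0 allows up to 0.0851 to 0.107 CPM in these libraries. Id2 was at 16.3, 15.6 and 16.7 CPM in the negative libraries, against 14.0, 24.5 and 12.9 CPM in the positive libraries, and its log2 difference of 0.03 did not pass in the paired fit (adjusted p = 0.93). Positive replicate 2 set the sign of that value, and without pair 2 the paired difference of Id2 was -0.30 (adjusted p = 0.000939). That p rests on replicates 1 and 3, much closer to each other than to replicate 2, so its spread may be technical.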

How the data were processed

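RNA from sorted cells went into TruSeq v2 libraries, with 100 ng of total RNA as input per the labels' protocols. The authors deposited raw counts of reads per gene, whole numbers in 2 tables. Per the submitters' processing notes, FastQC and STAR were used and the build was mm10 (GRCm38), with no versions stated. Counting tool, strand setting and annotation were not given in the sources used here. A further 4 columns of counts match no sample of the series and were left out. All 9 genes were found by name in the macrophage table and by gene ID in the tumor table. Of 53801 IDs, 53706 matched GENCODE M21 (GRCm38), the source of coordinates and merged exon lengths, in which 0 exon bases of the 9 genes are shared with another gene.

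Each table of 6 libraries was fitted alone in R 4.3.3 by the quasi-likelihood test of edgeR 4.0.16, after filterByExpr and TMM scaling, with Benjamini-Hochberg adjustment over all genes tested and a threshold of 0.05. The design had no block. Deviations from the group means, as log2 CPM with an offset of 0.5, correlated at 0.729, 0.831 and 0.762 for macrophage numbers 1, 2 and 3, and at 0.554, 0.733 and 0.560 for the tumor numbers. All were over 0.1, so the paired fit is given beside the unpaired one. In the tumor cells replicates 1 and 3 were as close across numbers as within them. Adjusted p values are from edgeR unless another tool is named, and those of list genes are from the paired fit. The scripts were tested on simulated data. Alternatives were DESeq2 1.42.0, other scaling and filters, the block and leaving out libraries or pairs.

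Named genes are the 9 members, Id2, Fcer1a, for each list at most 4 genes that passed, by smallest paired p, the most abundant gene of each list, and the 5 nearest to Flt3 and Zbtb46 with a mean of at least 5 CPM. Flt3l, Clec9a, Spib, Klk1, Pacsin1, Cox6a2, Ccr9, Clec10a, Jaml, Cpa3, Mcpt4, Cma1, Tpsb2 and Cd79a fall outside that rule. They were picked with their values in view. The members and lists were chosen with earlier results of these data known. Not every gene the rule takes is described.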

Additional observations from a re-analysis of the deposited data

How the results depend on the processing

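Replicate numbers were used as a block in the paired fits. In the macrophages the unpaired edgeR fit called 0 genes, and the replicate block called 1618 higher and 1524 lower, DESeq2 658 and 605, DESeq2 with the block 1445 and 1362, and edgeR with no filter on low counts 292 and 331. The block without pair 1, 2 or 3 called 626, 1298 and 1743 higher and 691, 1374 and 1606 lower. Leaving out 1 library without the block called 0 genes higher and 0 to 2 lower. Of the 9 genes, 6 were called lower with the block, 3 by DESeq2, 5 by DESeq2 with the block, 3 with no filter, and 4, 5 and 7 with the block without pair 1, 2 or 3. In the tumor cells 78 genes were higher and 32 lower without pairing, the block 1450 and 999, DESeq2 708 and 455, and DESeq2 with the block 1043 and 644. With no filter 173 were higher, and with library size alone 16 were lower. The block without pair 1, 2 or 3 called 1055, 2927 and 803 higher and 498, 2802 and 340 lower, and leaving out 1 library called 0 to 391 higher and 0 to 230 lower, both highest without positive replicate 2. Of the 9 genes 1 (Fscn1) was called lower there, with the block without pair 2. The tumor fit without pair 2 rests on replicates 1 and 3, much closer to each other than to replicate 2. Its calls may therefore rest on technical spread. With 1 library left out, log2 differences in the macrophages ran from -0.46 to 0.076 for Xcr1, -1.06 to 0.016 for Batf3, -1.19 to 0.79 for Cd209a and -1.20 to 0.14 for Ly6d. With the block, Xcr1 was at 0.12 without pair 3 and Cd209a at 0.12 without pair 2. In the tumor cells Id2 ran from -0.27 to 0.25 with 1 library left out and was at -0.30 with the block without pair 2. Cause was not tested for these changes. Xcr1 had no value under the filter of 1 CPM in 3 libraries. Depth limits Xcr1 and the genes near 0 in the tumor cells.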
